A study of Homo sapiens with 15 samples.

Results

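The 37 genes of the human mitochondrial chromosome were followed in Caco-2 monolayers exposed to a dishwasher rinse aid. Members were all genes whose symbol begins with MT-, that is 13 messenger, 2 ribosomal and 22 transfer RNA genes, and all 37 were matched by Ensembl identifier among the 60557 genes shared by the 15 count files. Caco-2, an established line from a human colorectal carcinoma, grows into monolayers resembling enterocytes. The 3 groups, of 5 libraries each, were unexposed controls and monolayers kept for 24 h in rinse aid diluted 1:40000 or 1:10000; the labels name no genotype or other agent, all groups share the same single line, and the composition of the rinse aid is not given there. The labels do not state whether the 5 replicates were separate cultures; a p-value here therefore speaks only of the spread among these libraries, which may be technical. Libraries were made from polyadenylated RNA.

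Mitochondrial DNA is a small circle that is transcribed from both strands into long precursors. In most places transfer RNA genes punctuate the messenger and ribosomal genes, and cutting the precursor at the transfer RNAs frees the RNAs between them. The 13 messengers encode core subunits of respiratory complexes I, III and IV and of the ATP synthase (complex V), and the 2 ribosomal RNAs, 12S (MT-RNR1) and 16S (MT-RNR2), form the mitochondrial ribosome. A poly(A) tail is added to most of the messengers, and in several of them that tail completes the stop codon. Mature transfer RNAs carry no long poly(A) tail, so poly(A) libraries hold few reads from them. All protein subunits of the mitochondrial ribosome and all enzymes that copy, cut, tail and degrade these RNAs are encoded in the nucleus. In bulk libraries fewer cells of a type and less RNA per cell cannot be told apart, and with poly(A) selection neither can the amount of an RNA and the share of it that carries a tail.

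The last 30 bases of selected messenger genes, as annotated, are shown because they hold the stop codon or the encoded part of it. Where a whole final codon is encoded, the RNA may run on past the printed end, before any tail. Capitals mark the stop codon, or the part of it that the genome encodes; the sequences are written 5′ to 3′ on the coding strand and come from GRCh38 with GENCODE 29 coordinates.
MT-ND1 (chrM:4233-4262, plus strand): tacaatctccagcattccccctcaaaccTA
MT-CO1 (chrM:7416-7445, plus strand): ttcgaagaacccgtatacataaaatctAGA
MT-CO2 (chrM:8240-8269, plus strand): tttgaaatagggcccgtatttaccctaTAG
MT-CO3 (chrM:9961-9990, plus strand): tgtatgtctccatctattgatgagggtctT
MT-ND3 (chrM:10375-10404, plus strand): gactacaaaaaggattagactgaaccgaaT
MT-ND4 (chrM:12108-12137, plus strand): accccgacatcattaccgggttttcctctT
MT-ND5 (chrM:14119-14148, plus strand): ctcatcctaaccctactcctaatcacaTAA
MT-ND6 (chrM:14149-14178, minus strand): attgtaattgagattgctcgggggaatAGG
In 6 of the 13 messengers the genome encodes only the first part of the stop codon, T in 5 of them and TA in 1, and the tail supplies the rest. The other 7 encode a whole final codon, which was TAA in 3 genes, TAG in 2, AGA in MT-CO1 and AGG in MT-ND6.

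The 3 transfer RNA genes with the most counts are shown with the anticodon in capitals, since most transfer RNA counts came from them.
MT-TI (chrM:4263-4331, plus strand): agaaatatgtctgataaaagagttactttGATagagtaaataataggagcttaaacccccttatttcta
MT-TT (chrM:15888-15953, plus strand): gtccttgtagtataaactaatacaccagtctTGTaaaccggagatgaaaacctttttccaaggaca
MT-TP (chrM:15956-16023, minus strand): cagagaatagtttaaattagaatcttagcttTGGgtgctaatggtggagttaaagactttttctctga
MT-TI is the isoleucine, MT-TT the threonine and MT-TP the proline transfer RNA gene. The first base of the anticodon was base 30 of MT-TI and base 32 of the other two.

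Library totals were 4333226 to 14230853 counts for controls. At 1:10000 they were 5489425 to 9555632, and at 1:40000 they were 2551839 to 172092447. Per the file headers, the control counts came from RNA STAR and list 60649 genes, while all rinse aid counts came from HISAT2 and list 61544. In both comparisons with the controls, exposure and the processing route (aligner and annotation) cannot be told apart, whereas the 2 dilutions share one route. Replicates 1 and 2 at 1:40000, the deepest and the shallowest library, lay above replicates 3 to 5 in most mitochondrial genes, so the fold change between dilutions is given for each of the 16 tested genes with and without them. Enterocyte and Caco-2 markers were present in every group (CPM, that is counts scaled to a common library size, summed over their 12 genes was 11785 to 13294 in control libraries, 11840 to 13096 in those at 1:10000 and 10980 to 12404 in those at 1:40000). Of the 9 markers of leukocytes, stroma, endothelium and neurons, 3 passed the filter on low counts (COL1A1, PDGFRA and PECAM1), PTPRC was at 0 in every library, and their summed CPM was 142.8 to 166.9 in control libraries, 59.0 to 67.2 in those at 1:10000 and 107.5 to 149.4 in those at 1:40000. Within the enterocyte list the genes did not move together. At 1:10000 against control, 7 of the 11 tested markers were lower and 2 higher (median log2 difference -0.51), where 36.2% of all tested genes were lower and 34.8% higher. Among the lower were CDX2 (-1.45) and HNF4A (-1.40), transcription factors of intestinal epithelium, the apolipoprotein APOA1 (-1.26) and the brush border enzyme SI (-2.30). The 2 higher were the keratins KRT8 (0.42) and KRT18 (0.74), which hold much of the sum. Between the dilutions 6 were lower and 2 higher at 1:10000 (median -0.31), where 29.1% of all tested genes were lower and 28.3% higher. At 1:40000 against control 3 of the 11 were lower (median -0.08), near the 26% of all tested genes. At 1:10000 several of these markers thus differed beside the mitochondrial RNA, and the part of either list in the results was not tested.

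The comparison between the dilutions, in which aligner and annotation were shared, showed higher mitochondrial RNA at 1:10000. All 37 genes together took 5.85%, 7.15%, 6.26%, 5.86% and 6.16% of counts in the 5 libraries at 1:10000, in order of replicate. At 1:40000 they took 3.30%, 3.10%, 2.03%, 1.96% and 2.07%. The controls had 1.80%, 1.72%, 1.41%, 1.53% and 1.43%. The 3 groups did not overlap. Without replicates 1 and 2 at 1:40000, the difference of that group from control was 0.443 percentage points, against 0.914 with them. Control replicates 1 and 2, the highest controls, were kept. The share was 2.51 times as high at 1:10000 as at 1:40000 (exact two-sided permutation test over libraries, p = 0.00794, adjusted over 15 class tests 0.0119). The smallest p that 5 against 5 libraries can give is 0.00794.

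Messenger and ribosomal RNA differed in how far they moved. The messenger share was 1.85 times as high at 1:10000 (2.92% ± 0.284, SD, n = 5) as at 1:40000 (1.58% ± 0.376), with no overlap. The ribosomal share was 3.64 times as high (3.33% ± 0.290 against 0.915% ± 0.281), again with no overlap, and both differences had an adjusted p of 0.0119 by the exact permutation test. Against the controls (1.30% ± 0.128 messenger, 0.280% ± 0.0615 ribosomal), the 1:40000 libraries were higher in ribosomal share (3.27-fold, exact permutation, adjusted p = 0.0119) but overlapped the controls in messenger share (adjusted p = 0.230). Without replicates 1 and 2 at 1:40000, the messenger difference from control was 0.00916 percentage points and the ribosomal difference 0.434. Control replicates 1 and 2, the highest controls in both shares, were kept.

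**Figure D1:**
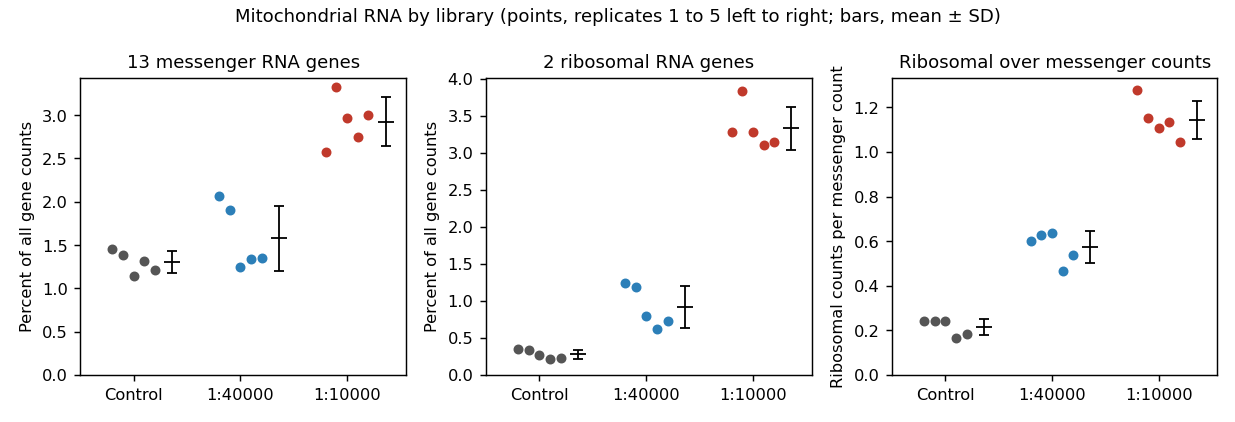
Percent of all gene counts taken by the 13 messenger genes (left) and the 2 ribosomal genes (middle), and ribosomal counts per messenger count (right), for each library (points, replicates 1 to 5 from left to right) with the mean ± SD of 5 libraries beside them. The 1:10000 libraries lie above both other groups in all panels, and the 1:40000 libraries overlap the controls in the messenger panel only.

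Each messenger count was accompanied by more ribosomal counts in the exposed groups than in the controls. This ratio does not depend on library scaling, but against the controls it may depend on the processing route. In the controls there were 0.240, 0.243, 0.241, 0.164 and 0.186 ribosomal counts per messenger count. At 1:40000 the ratios were 0.600, 0.626, 0.637, 0.467 and 0.540. The libraries at 1:10000 had 1.28, 1.15, 1.11, 1.13 and 1.05. No group overlapped another, and the step between the dilutions was 1.99-fold (exact permutation, adjusted over 51 composition tests 0.0176). Replicates 1 and 2 at 1:40000, which stood apart in their shares of counts, lay within 0.467 to 0.637 here.

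MT-RNR2, the RNA of the large mitochondrial ribosomal subunit, had the highest level of all 37 genes at 1:10000. As CPM after TMM scaling (normalised CPM), the controls had 2674, 2693, 2210, 1784 and 1739. The 1:40000 libraries had 10196, 9521, 6099, 4729 and 5410, and the 1:10000 libraries 33115, 38118, 30319, 28738 and 29090. Every library at 1:10000 lay above every one at 1:40000, and each of those above every control. The difference between dilutions was 2.15 ± 0.23 (log2 ± SE, edgeR adjusted p = 3.14e-06), and 2.57 without replicates 1 and 2 at 1:40000. Against control it was 3.84 ± 0.24 at 1:10000 (adjusted p = 7.56e-09) and 1.70 ± 0.22 at 1:40000 (adjusted p = 3.25e-05), the latter 1.29 without those 2 libraries.

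MT-RNR1, the RNA of the small subunit, rose less than MT-RNR2 at 1:10000. Its normalised CPM was 623, 557, 429, 305 and 405 in the controls and 2078, 2099, 1509, 1303 and 1642 at 1:40000. At 1:10000 it was 3574, 4682, 4197, 3952 and 4325. The 3 groups did not overlap. The log2 difference was 1.27 ± 0.19 between dilutions (edgeR adjusted p = 6.15e-05), 3.16 ± 0.20 for 1:10000 against control (adjusted p = 5.68e-09) and 1.90 ± 0.19 for 1:40000 against control (adjusted p = 2.20e-06). Without replicates 1 and 2 at 1:40000 it was 1.49 between dilutions and 1.69 for 1:40000 against control.

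The 2 ribosomal RNAs lie side by side on the same precursor, with the valine transfer RNA gene MT-TV between them, yet their proportion changed. MT-RNR1 made up 14.6% to 18.9% of ribosomal counts in control libraries. It made up 16.9% to 23.3% at 1:40000 and 9.74% to 12.9% at 1:10000. The 1:10000 libraries lay below all others (exact permutation, adjusted p = 0.0176 against each group), while the other two groups overlapped (adjusted p = 0.142). Per kilobase of gene, MT-RNR2 was at 1424 ± 296 normalised CPM in the controls and 20447 ± 2495 at 1:10000, against 486 ± 132 and 4346 ± 434 for MT-RNR1 (SD, n = 5).

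All 13 messengers passed the filter on low counts, as did both ribosomal genes and 1 of the 22 transfer RNA genes, so 16 of the 13158 tested genes were members. Between the dilutions, 12 messengers were higher at 1:10000, none lower and 1, MT-ND3, was not called (edgeR, adjusted p under 0.05; 0 lower also at an unadjusted p under 0.05). In the same comparison 57.3% of all tested genes were called, 28.3% higher and 29.1% lower. The messengers' median log2 difference was 1.10, against -0.007 over all genes tested. In 7 of the 13 messengers the groups did not overlap, all higher at 1:10000, where 40.3% of all tested genes did not overlap, 20.4% higher and 19.9% lower. Scaling by total counts alone would set the median of all genes at -0.16, with 2463 genes higher and 5199 lower, and upper-quartile scaling gave 3323 and 4288 beside the 3720 and 3823 of TMM.

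Cytochrome c oxidase, complex IV, takes 3 core subunits from mitochondrial DNA, and they did not move alike. MT-CO1, the catalytic subunit, had 3336, 3384, 2815, 3259 and 2987 normalised CPM in the controls. It had 7373, 6017, 3764, 3918 and 4291 at 1:40000 and 10150, 12808, 10554, 9753 and 10919 at 1:10000. The groups did not overlap, although at 1:40000 replicates 1 and 2 stood well above the other three. The log2 difference was 1.10 ± 0.17 between dilutions (edgeR adjusted p = 6.88e-05) and 1.45 without those 2 libraries. At 1:40000 it was 0.68 ± 0.17 above control (adjusted p = 0.00332), and 0.34 without them (adjusted p = 0.00141).

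MT-CO3, another core subunit of complex IV, followed MT-CO1. Its levels were 2213, 2239, 1836, 2279 and 2183 normalised CPM in the controls and 3963, 3905, 2615, 2966 and 3129 at 1:40000. At 1:10000 they were 5856, 7807, 5751, 5456 and 6349. No group overlapped another. Between dilutions the log2 difference was 0.91 ± 0.12 (edgeR adjusted p = 2.91e-06), and at 1:40000 the gene was 0.62 ± 0.12 above control (adjusted p = 2.09e-04). Leaving out replicates 1 and 2 at 1:40000 gave 1.12 and 0.44, both called.

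MT-CO2, the subunit that receives electrons from cytochrome c, was the 1 messenger called lower than control at both dilutions. The controls had 1250, 1249, 1009, 1206 and 1091 normalised CPM. The 1:40000 libraries had 662, 801, 684, 714 and 740, all below the controls. At 1:10000 the values were 782, 890, 986, 953 and 1066, of which only the highest reached into the range of the controls. The log2 difference was -0.69 ± 0.08 at 1:40000 (edgeR adjusted p = 4.66e-08) and -0.31 ± 0.08 at 1:10000 (adjusted p = 7.43e-04). Between the dilutions MT-CO2 was higher at 1:10000 by 0.38 ± 0.08 (adjusted p = 1.58e-04), the smallest rise among the 12 called messengers. Scaling by total counts alone gave 0.23 between dilutions and -0.48 for 1:10000 against control, both still called, and leaving out replicates 1 and 2 at 1:40000 gave 0.41 between dilutions and -0.70 for 1:40000 against control.

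Complex I, the NADH dehydrogenase, takes 7 of its core subunits from mitochondrial DNA, and 6 of the 7 were higher at 1:10000 than at 1:40000. MT-ND4, a proton-pumping subunit of the membrane arm, showed the largest messenger difference. Its normalised CPM was 2106, 1875, 1368, 1661 and 1453 in the controls, and 5067, 6392, 5347, 4832 and 5016 at 1:10000. At 1:40000 it was 3021, 2468, 1200, 1415 and 1212. The 1:10000 libraries were above all others, and at 1:40000 replicates 1 and 2 were above every control and replicates 3 and 5 below every control. The log2 difference between dilutions was 1.52 ± 0.26 (edgeR adjusted p = 2.38e-04), and 2.08 without replicates 1 and 2. The difference of 1:40000 from control changed sign when those 2 libraries were left out, from 0.14 ± 0.25 (adjusted p = 0.680) to -0.40 (adjusted p = 0.0204). Control replicates 1 and 2, the highest controls (2106 and 1875), were kept in that fit.

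MT-ND4L, the small subunit whose reading frame overlaps the start of MT-ND4, moved with it. It had 236, 260, 186, 223 and 207 normalised CPM in the controls and 288, 301, 208, 202 and 203 at 1:40000. At 1:10000 it had 467, 796, 688, 649 and 649. The 1:10000 libraries stood above all others, and the difference between dilutions was 1.44 ± 0.16 (log2, edgeR adjusted p = 2.29e-06), or 1.68 without replicates 1 and 2 at 1:40000.

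MT-ND1, at the junction of the membrane and matrix arms, behaved alike. Its normalised CPM was 865, 778, 681, 814 and 759 in the controls and 1154, 1109, 648, 835 and 773 at 1:40000. It was 1676, 2203, 2237, 1961 and 2216 at 1:10000, above every other library. The log2 difference between dilutions was 1.19 ± 0.14 (edgeR adjusted p = 5.44e-06), or 1.47 without replicates 1 and 2 at 1:40000. Its difference of 0.21 between 1:40000 and control (adjusted p = 0.230) was called on leaving out replicate 3 at 1:40000 (0.31, adjusted p = 0.0328).

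MT-ND2, a further proton-pumping subunit, differed less. It had 640, 638, 604, 575 and 463 normalised CPM in the controls and 762, 797, 659, 573 and 547 at 1:40000. At 1:10000 it had 788, 963, 967, 895 and 972. Only the lowest of these fell within the range at 1:40000, and the difference was 0.46 ± 0.11 (log2, edgeR adjusted p = 0.00121), or 0.64 without replicates 1 and 2 at 1:40000. Against control, 1:40000 was at 0.19 (adjusted p = 0.140), and at 0.26 without its replicate 5 (adjusted p = 0.0411).

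MT-ND5, the third of the pumping subunits, had 1072, 882, 758, 847 and 773 normalised CPM in the controls. It had 911, 852, 534, 613 and 556 at 1:40000 and 879, 1184, 1200, 1125 and 1223 at 1:10000. Replicate 1 at 1:10000 lay below the highest library of either other group. The gene was higher at 1:10000 than at 1:40000 by 0.70 ± 0.16 (edgeR adjusted p = 0.00205), or by 1.00 without replicates 1 and 2 at 1:40000. Against control the difference at 1:10000 was 0.37 ± 0.16 with an adjusted p of 0.0505. It passed the test on leaving out control replicate 1, 1:10000 replicate 1 or 1:40000 replicate 1, 2, 3 or 5, with adjusted p from 0.0210 to 0.0439, and with DESeq2 (0.0286). At 1:40000 the difference was -0.32 ± 0.16 (adjusted p = 0.106), and it passed the test at -0.45 without replicate 1 of that group and at -0.61 without replicates 1 and 2.

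MT-ND3, a short subunit next to the quinone site, was the 1 messenger that was not higher at 1:10000 than at 1:40000. The controls had 225, 344, 338, 273 and 224 normalised CPM, the 1:40000 libraries 157, 250, 348, 210 and 290, and the 1:10000 libraries 159, 200, 190, 217 and 215. All 1:10000 libraries were below the controls, and all were within the range of the 1:40000 group. The log2 difference was -0.35 ± 0.21 between dilutions (edgeR adjusted p = 0.159), -0.49 (adjusted p = 0.0300) without replicate 1 at 1:40000 and -0.52 (adjusted p = 0.0416) without replicates 1 and 2. Against control it was -0.52 ± 0.21 at 1:10000 (adjusted p = 0.0374). That call was lost on leaving out control replicate 2, 3 or 4, 1:10000 replicate 1, 2 or 3, or 1:40000 replicate 2, with adjusted p from 0.0528 to 0.0968, and with no filter on low counts (0.0698).

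MT-ND6 is the only messenger encoded on the minus strand, and it was 19.6 ± 9.82 normalised CPM per kilobase in the controls, the lowest level of the 13. With poly(A) selection, a low amount of MT-ND6 RNA and a low share of it with a tail cannot be told apart. Its normalised CPM was 16.8, 6.07, 7.54, 6.19 and 15 in the controls, 4.96, 11.1, 9.82, 6.24 and 6.35 at 1:40000, and 7.37, 17.9, 25.1, 19.4 and 18.8 at 1:10000. Replicate 1 at 1:10000 lay within the 1:40000 range and the other four above it. The difference between dilutions was 1.30 ± 0.38 on the log2 scale (edgeR adjusted p = 0.00922), or 1.18 (adjusted p = 0.0373) without replicates 1 and 2 at 1:40000. Against control neither dilution was called (adjusted p = 0.0647 at 1:10000 and 0.340 at 1:40000), and at 1:10000 leaving out control replicate 1 or 5 or 1:10000 replicate 1 gave adjusted p of 0.0267, 0.0341 and 0.0100, and DESeq2 0.0493. The strand setting of the counting is not given in the sources used here, so reads of MT-ND6 and of RNA from the opposite strand cannot be told apart.

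MT-CYB, cytochrome b, is the only mitochondrially encoded part of complex III. Its normalised CPM was 803, 682, 618, 721 and 633 in the controls and 872, 838, 565, 683 and 587 at 1:40000. At 1:10000 it was 963, 1247, 1168, 1095 and 1186, above all other libraries, while the other two groups overlapped. The log2 difference between dilutions was 0.68 ± 0.12 (edgeR adjusted p = 1.09e-04), or 0.90 without replicates 1 and 2 at 1:40000.

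MT-ATP6, the subunit of the ATP synthase that carries protons through the membrane, showed the same order. It had 869, 842, 606, 747 and 634 normalised CPM in the controls and 1216, 1062, 606, 656 and 610 at 1:40000. At 1:10000 it had 1805, 2167, 1797, 1618 and 1825. These lay above both other groups, with a log2 difference between dilutions of 1.15 ± 0.20 (edgeR adjusted p = 3.19e-04) and of 1.58 without replicates 1 and 2 at 1:40000.

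MT-ATP8, a short accessory subunit whose 3′ end overlaps MT-ATP6, was more scattered. It had 112, 177, 111, 112 and 137 normalised CPM in the controls, 65.5, 152, 110, 110 and 121 at 1:40000, and 140, 413, 293, 280 and 267 at 1:10000. Replicate 1 was the lowest library at both dilutions, and at 1:10000 it fell inside both other groups. The difference between dilutions was 1.35 ± 0.28 (edgeR adjusted p = 0.00106), or 1.30 without replicates 1 and 2 at 1:40000.

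**Figure D2:**
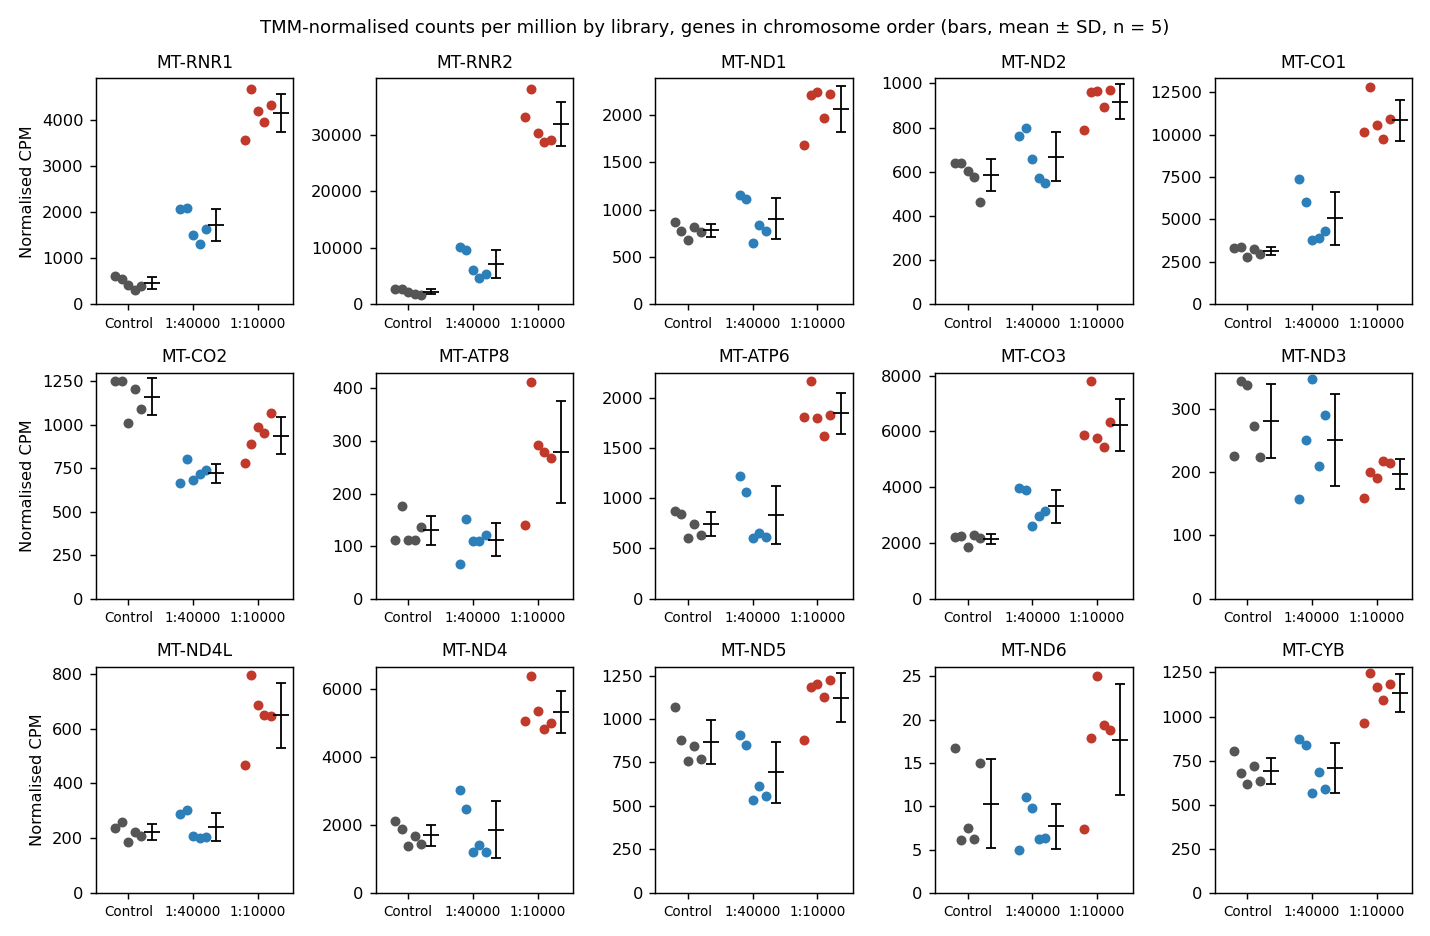
Normalised CPM of the 2 ribosomal and 13 messenger genes in each library (points, replicates 1 to 5 from left to right within a group), each panel on its own linear axis from 0, with the mean ± SD of 5 libraries. MT-CO2 at 1:40000 (662 to 801) lies below the controls, MT-ND3 at 1:10000 (159 to 217) lies below the controls and within 1:40000, and the other panels have their highest mean at 1:10000.

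Against the controls, 9 messengers were higher at 1:10000 and 2 lower (MT-CO2 and MT-ND3), with a median log2 difference of 1.09 against -0.02 over all genes. Of all tested genes, 71% were called in that comparison, 34.8% higher and 36.2% lower (3567 higher and 6027 lower when scaled by total counts alone, beside 4583 and 4761). At 1:40000, 2 messengers were higher (MT-CO1 and MT-CO3), 1 was lower (MT-CO2) and 10 were not called, with 52.1% of all tested genes called, 26.1% higher and 26% lower (4032 and 2899 with upper-quartile scaling, beside 3440 and 3419). In 8 of the messengers higher at 1:10000 the groups did not overlap, where 57.8% of all tested genes did not overlap, with 28.8% of all genes in that direction. At 1:40000, 36.3% of all tested genes did not overlap with control, among them MT-CO1, MT-CO2 and MT-CO3. Both ribosomal genes were higher at both dilutions. Without replicates 1 and 2 at 1:40000, 3 genes were lower there, with MT-ND4 and MT-ND5 beside MT-CO2. Control replicates 1 and 2, the highest controls for MT-ND4 and MT-ND5, were kept in that fit. The comparisons with control share the control libraries, so they are not independent of each other.

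By complex, the median log2 difference between dilutions was 1.19 for the 7 subunits of complex I, 0.91 for the 3 of complex IV, 1.25 for the 2 of complex V and 0.68 for MT-CYB. At 1:40000 against control, 0 of the 7 complex I subunits were called in either direction (edgeR; none of the 7 had an unadjusted p under 0.05, and 0 were called by DESeq2). Without replicates 1 and 2 of that dilution, but with those of the controls, MT-ND4 and MT-ND5 were called lower.

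**Figure D3:**
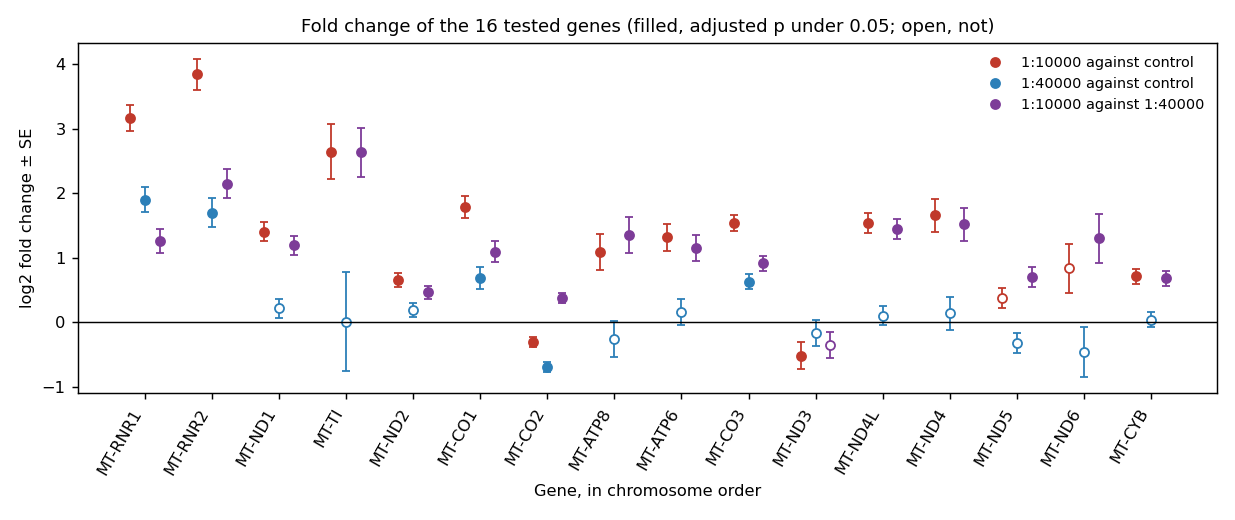
Log2 fold change ± SE of the 16 tested mitochondrial genes in chromosome order, for 1:10000 against control, 1:40000 against control and 1:10000 against 1:40000 (filled points, edgeR adjusted p under 0.05). MT-RNR2 is highest in the comparison of 1:10000 with control at 3.84, and MT-CO2 is lowest in that of 1:40000 with control at -0.69.

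The proportions among the messengers, which no library scaling can shift, differed between the groups. Against the controls, exposure and processing route cannot be told apart here either. MT-CO2 made up 9.10%, 9.35%, 9.22%, 9.48% and 9.44% of messenger counts in the controls. At 1:40000 it made up 3.24%, 4.31%, 5.73%, 5.53% and 5.66%, and at 1:10000 2.72%, 2.40%, 3.16%, 3.30% and 3.34%. Both exposed groups lay far below the controls (exact permutation, adjusted p = 0.0176 for each), and the dilutions differed from each other with 1 overlapping library at 1:40000 (adjusted p = 0.0419; 0.0558 to 0.0578 without 1:10000 replicate 1, 2 or 3). Per kilobase, MT-CO2 was the third highest messenger in the controls (1697 ± 156 normalised CPM), the fifth at 1:40000 (1053 ± 78.5) and the seventh at 1:10000 (1367 ± 156, next to MT-ATP8 at 1346 ± 467, from which it did not differ beyond the spread).

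MT-CO1 took the opposite course. It held 24.3% to 25.8% of messenger counts in control libraries, 30.4% to 36.1% at 1:40000 and 33.8% to 35.3% at 1:10000. Both exposed groups were above the controls without overlap, whereas the dilutions overlapped (adjusted p = 0.181, exact permutation). Without replicate 1 at 1:40000 they differed by 2.56 percentage points (adjusted p = 0.0162), and without replicates 1 and 2 by 2.77 (adjusted p = 0.0304). MT-CO3 held between 16.1% and 18.9% in control libraries, between 19.4% and 23.9% at 1:40000 and between 18.4% and 21.0% at 1:10000 (exact permutation, adjusted p = 0.0176 for 1:40000 and 0.0300 for 1:10000 against control). The call at 1:10000 was lost on leaving out control replicate 1, 2, 3 or 4 or 1:10000 replicate 1, 2 or 5, with adjusted p from 0.0540 to 0.0578. Between the dilutions the MT-CO3 proportion was called (exact permutation) without replicate 1 at 1:40000 (-2.73 percentage points, adjusted p = 0.0392) and without replicates 1 and 2 (-3.21, adjusted p = 0.0304).

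Complex I subunits split in their proportions at 1:10000. MT-ND4 held 12.5% to 15.3% of messenger counts in control libraries, 9.28% to 14.8% at 1:40000 and 15.7% to 17.6% at 1:10000. The 1:10000 libraries lay above both other groups (exact permutation, adjusted p = 0.0176 for each), and 1:40000 was below control without its replicates 1 and 2 (-3.40 percentage points, adjusted p = 0.0304). MT-ND5 fell step by step: it held between 6.60% and 7.80% in control libraries, between 4.26% and 4.75% at 1:40000 and between 3.06% and 3.90% at 1:10000, with no overlap between any groups (adjusted p = 0.0176 for all 3 comparisons).

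MT-ND2, MT-ND3 and MT-CYB also made up less of the messenger pool at 1:10000. MT-ND2 held 2.60% to 3.10% there, against 3.73% to 5.51% at 1:40000 and 4.00% to 5.52% in the controls. MT-ND3 held 0.540% to 0.753%, against 0.767% to 2.91% and 1.64% to 3.09%. MT-CYB held 3.35% to 3.79%, against 4.27% to 5.30% and 5.11% to 5.84%. In all of these the 1:10000 libraries lay below both other groups (exact permutation, adjusted p = 0.0176 for each). MT-ND1, MT-ATP6, MT-ATP8 and MT-ND6 had adjusted p from 0.123 to 0.833 in the 3 comparisons of their proportions. Without replicate 1 at 1:40000, MT-ATP6 was higher in proportion at 1:10000 than there (0.705 percentage points, adjusted p = 0.0392), as it was without replicates 1 and 2 (0.900, adjusted p = 0.0304).

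Of 17 composition measures, 12 were called at 1:10000 against control, 8 at 1:40000 against control and 9 between the dilutions. MT-ND4L was called higher in proportion at 1:10000 than at 1:40000 (1.62% to 2.25% against 1.41% to 1.74%, exact permutation, adjusted p = 0.0300), a call lost without replicates 1 and 2 at 1:40000 (adjusted p = 0.104).

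**Figure D4:**
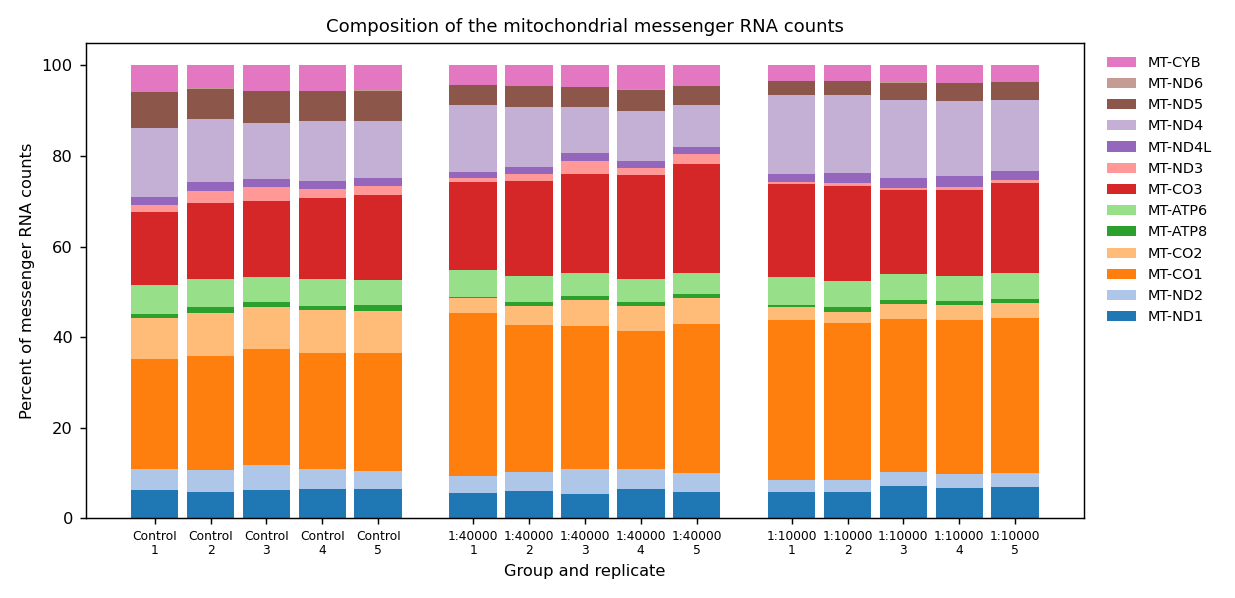
Percent of the mitochondrial messenger counts taken by each of the 13 messenger genes (stacked bars), for each library by group and replicate. The MT-CO2 segment is 9.10% to 9.48% in control libraries, 3.24% to 5.73% at 1:40000 and 2.40% to 3.34% at 1:10000.

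Properties of the genes were set beside their differences as a description. Messengers whose stop codon is completed by the tail had a median log2 difference of 0.80 between the dilutions (6 genes, -0.35 to 1.52), and those with an encoded final codon 1.15 (7 genes, 0.38 to 1.44). The ranges overlapped almost wholly. Across the 13 genes, which share libraries and precursor, the correlation of that difference with gene length was 0.03, with GC content 0.14 and with start position 0.03 (Pearson). MT-CO1 and MT-CO2 are neighbours on the plus strand, with MT-TS1 and MT-TD between them. MT-ND3 lies between MT-CO3 and MT-ND4L, and its difference between dilutions was -0.35 against 0.91 and 1.44 in those genes.

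Transfer RNA genes gave 664 of the 9611058 mitochondrial counts over the 15 libraries, and 513 of the 664 came from MT-TI, MT-TT and MT-TP. Of the 22 genes, 9 (MT-TV, MT-TN, MT-TS1, MT-TK, MT-TG, MT-TR, MT-TH, MT-TS2 and MT-TL2) had no count in any library, which allows up to 3 counts, or 0.0174 to 1.18 CPM depending on the library, for counting error only. MT-TI was the 1 that could be tested. It had 0, 5, 4, 10 and 2 counts in the controls, 60, 3, 15, 9 and 3 at 1:40000, and 35, 7, 30, 14 and 23 at 1:10000. As normalised CPM the 1:10000 libraries (1.42 to 4.10) lay above those at 1:40000 (0.307 to 1.15) and the controls (0 to 0.888). The log2 difference between dilutions was 2.64 ± 0.38, or 2.40 without replicates 1 and 2 at 1:40000. MT-TI passed the filter on low counts through the 1:10000 libraries alone. Its adjusted p between dilutions (edgeR, 2.21e-06) is therefore not separate support for a higher level there. At 1:40000 it did not differ detectably from control (0.01 ± 0.77, edgeR adjusted p = 0.995). MT-TI begins at the base after the last of MT-ND1, whose printed 3′ end above stops at TA.

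The other leading transfer RNA genes did not follow MT-TI. MT-TT had 11, 20, 9, 17 and 6 counts in the controls but 3, 0, 2, 3 and 3 at 1:10000, with 80, 1, 11, 7 and 5 at 1:40000 in libraries of very unequal depth. MT-TP, on the minus strand, had 6, 2, 1, 2 and 10 counts, then 44, 0, 21, 1 and 4 at 1:40000 and 5, 6, 7, 3 and 3 at 1:10000. Neither passed the filter on low counts, and no test was made. Of the remaining 10 genes, MT-TW had 51 counts over the 15 libraries, MT-TY 23, MT-TM 17, MT-TQ 15 and MT-TD 14. MT-TE had 9, MT-TF and MT-TL1 8 each, MT-TA 5 and MT-TC 1. All 22 together took 3.28e-04% to 6.60e-04% of counts at 1:10000, 1.27e-04% to 2.47e-04% at 1:40000 and 2.53e-04% to 3.80e-04% in the controls. The dilutions did not overlap (exact permutation, adjusted p = 0.0119), yet as a part of mitochondrial counts the 2 dilutions did (0.00458% to 0.0106% and 0.00407% to 0.0121%, adjusted p = 0.545), both below the controls (0.0165% to 0.0245%, adjusted p = 0.0176 for each).

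By strand, the 9 minus strand genes, MT-ND6 and 8 transfer RNA genes, took 0.0122% to 0.0411% of mitochondrial counts at 1:10000. In these genes, too, amount and tailed share cannot be told apart. The 9 genes took 0.0162% to 0.0567% at 1:40000 and 0.0389% to 0.123% in the controls. At 1:10000 the proportion was below control with 1 library overlapping (exact permutation, adjusted p = 0.0300; 0.0558 to 0.101 on leaving out any 1 of the 1:10000 libraries), and the dilutions did not differ detectably (adjusted p = 0.440).

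Nuclear copies of mitochondrial genes share near-identical sequence with their parents, so reads can be split between them. By symbol 417 such copies were listed, and 6 passed the filter on low counts. All 6 were higher at 1:10000 than at 1:40000 and than control, and 5 were higher at 1:40000 than control (edgeR). In these comparisons 28.3%, 34.8% and 26.1% of all tested genes were higher. MTRNR2L10, MTRNR2L1 and MTND4P12 had means of 0, 0 and 0.28 normalised CPM in the controls and of 8.59, 3.63 and 2.10 at 1:10000. They passed the filter through exposed libraries, so that they were higher there was partly set in advance. MTATP6P1, a copy of MT-ATP6, had 131.3 ± 15.3 normalised CPM in the controls, 139.3 ± 45.3 at 1:40000 and 310.3 ± 27.2 at 1:10000. Counts of the copies were 16.9% to 19.6%, 15.9% to 17.9% and 16.4% to 17.5% of those of MT-ATP6 in the 3 groups, which overlap. Copies of MT-ND2 were 2.99% to 3.78% of their parent in the controls and 5.18% to 6.95% and 5.51% to 6.21% at 1:10000 and 1:40000. MTRNR2L10, a copy of the 16S gene, was at 0 in all 5 controls, which allows 0.211 to 0.692 CPM, and at 0.820 to 5.07 normalised CPM at 1:40000 and 5.95 to 10.9 at 1:10000. Adding the copies to their parents left every count of called members within 1.5 times of the value given.

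The nuclear genes that serve the mitochondrial chromosome did not move as a block. Of 221 genes in 10 lists, 212 were tested, and between the dilutions 60 were higher and 37 lower at 1:10000, with a median of 0.03 against -0.007 over all genes. Upper-quartile scaling turned that balance to 46 higher and 51 lower. Against control 45 were higher and 102 lower at 1:10000 (median -0.17), and 25 and 96 at 1:40000 (median -0.16). Of all tested genes 34.8% were higher and 36.2% lower at 1:10000 against control, and 26.1% and 26% at 1:40000. Between the dilutions these shares were 28.3% and 29.1%. The lists were written with earlier results of these data known, and their counts stand beside the shares of all genes called given above.

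Among 34 tested genes that cut, modify, tail or degrade mitochondrial RNA, 15 were higher at 1:10000 than at 1:40000 and 6 lower (median 0.21). Of all tested genes 28.3% were higher and 29.1% lower. Upper-quartile scaling gave 11 higher and 6 lower for the list. SUPV3L1, the helicase of the mitochondrial RNA degradosome, had 58.6 ± 3.5 normalised CPM in the controls, 63.5 ± 4.1 at 1:40000 and 108.8 ± 5.53 at 1:10000, a log2 difference between dilutions of 0.79 ± 0.06 (edgeR adjusted p = 2.34e-10). MTPAP, the mitochondrial poly(A) polymerase, rose by 0.65 ± 0.07 (53.3 to 83.9 normalised CPM, adjusted p = 1.18e-08). FASTK, an RNA-binding protein whose mitochondrial form is needed for MT-ND6 messenger, was lower (-0.63 ± 0.09), and so was MTRES1, a regulator of mitochondrial transcription under stress (-0.68 ± 0.14).

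Of 19 genes of mitochondrial DNA replication and transcription, 4 were higher and 4 lower between the dilutions (median -0.03), where 28.3% of all tested genes were higher and 29.1% lower. Upper-quartile scaling gave 2 higher and 6 lower. TFAM, which packages the mitochondrial chromosome and starts its transcription, had 335 ± 32 normalised CPM in the controls, 270 ± 29 at 1:40000 and 227 ± 12 at 1:10000. Its log2 difference between dilutions was -0.25 ± 0.08 (edgeR adjusted p = 0.00629). LONP1, a matrix protease that degrades TFAM among others, was 111 ± 7.0 in the controls, 249 ± 23 at 1:40000 and 192 ± 23 at 1:10000. It was above control at both dilutions and lower at 1:10000 than at 1:40000 (-0.38 ± 0.07, adjusted p = 1.16e-04). MGME1, an exonuclease of mitochondrial DNA, was lower at 1:10000 (-0.48 ± 0.09), and MTERF3, a regulator of mitochondrial transcription, higher by 0.41 ± 0.12. Of 8 tested biogenesis regulators, GABPB1, a subunit of the nuclear respiratory factor NRF-2, was higher by 0.66 ± 0.08 and the coactivator PPARGC1B lower (-0.99 ± 0.12), with 2 of the 8 called in each direction.

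Nuclear subunits of the respiratory complexes were called in both directions, except in complex II. Of 35 tested nuclear genes of complex I, 4 were higher and 10 lower at 1:10000 than at 1:40000 (median -0.09), where 28.3% of all tested genes were higher and 29.1% lower. NDUFS3 was higher (0.40 ± 0.06, edgeR adjusted p = 4.43e-06), and NDUFS6 was lower (-0.52 ± 0.09, adjusted p = 4.48e-05). Complex III had 3 of 9 higher and 2 lower, complex IV 1 and 1 of 11 (COX6A1 higher by 0.36 ± 0.08, COX6B1 lower with -0.23 ± 0.09), and complex V 4 and 4 of 18. Upper-quartile scaling gave 1 higher and 3 lower for complex III and 3 and 7 for complex V. Complex II, which has no mitochondrially encoded subunit, had 2 of 4 lower, SDHC at -0.44 ± 0.08 and SDHA at -0.53 ± 0.10.

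Proteins of the large mitochondrial ribosomal subunit, which holds the 16S RNA, had 19 of 47 tested genes higher at 1:10000 than at 1:40000 and 5 lower (median 0.17). MRPL32 was higher by 0.69 ± 0.09 and MRPL28 lower (-0.52 ± 0.07). Those of the small subunit, which holds the 12S RNA, had 8 of 28 higher and 2 lower (median 0.02), with MRPS30 higher by 0.57 ± 0.07 and MRPS7 lower (-0.46 ± 0.09). Between the dilutions 28.3% of all tested genes were higher and 29.1% lower. Upper-quartile scaling gave 16 higher and 8 lower for the large subunit and 6 and 4 for the small. Against control at 1:10000, the large subunit had 11 of 47 higher and 17 lower (median -0.03), and the small subunit 7 of 28 and 13 (median -0.12). In that comparison 34.8% of all tested genes were higher and 36.2% lower (median -0.02), so the large subunit was near all genes in its lower share and median. MT-RNR2 and MT-RNR1 were higher.

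**Figure D5:**
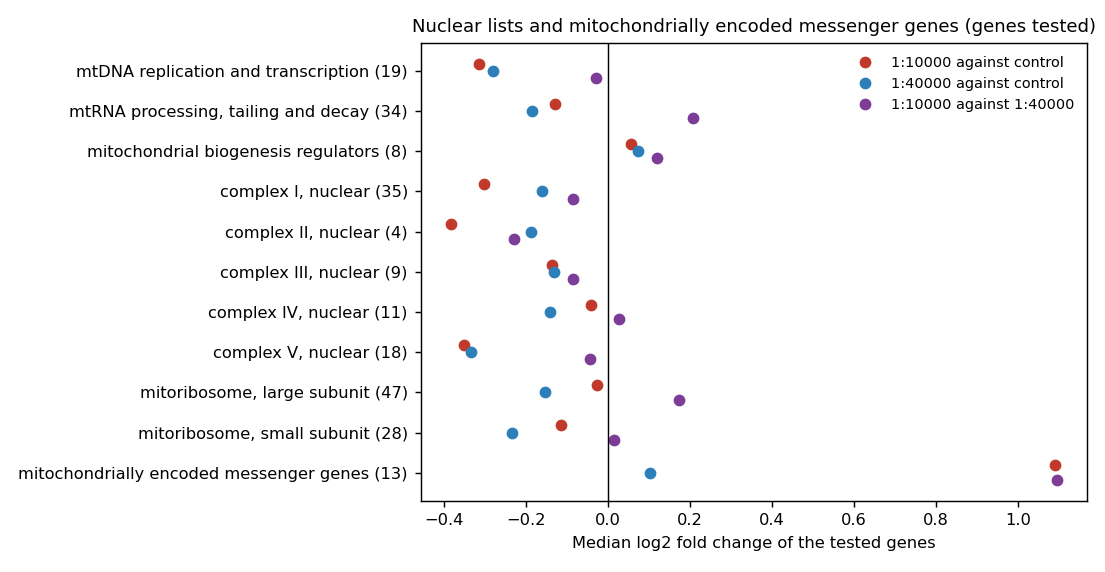
Median log2 fold change of the tested genes in 10 nuclear lists and of the 13 mitochondrially encoded messengers, for the 3 comparisons (number of genes tested in brackets). The nuclear medians lie between -0.38 and 0.21, and those of the mitochondrial messengers at 1.09 and 1.10 for 1:10000 against control and against 1:40000, and at 0.10 for 1:40000 against control.

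The tested genes outside mitochondrial DNA whose log2 CPM was most like the summed messenger level were BNIP1, MTATP6P1, SYBU, ALAS1 and ZDHHC7, with Pearson's r of 0.98, 0.98, 0.98, 0.97 and 0.97 over the 15 libraries. These values are a measure of likeness only, since the libraries fall into groups. ALAS1, the first enzyme of haem synthesis, had 91.5 ± 8.0 normalised CPM in the controls, 109.3 ± 9.9 at 1:40000 and 167.2 ± 13.5 at 1:10000. BNIP1, a membrane fusion protein of the endoplasmic reticulum, had 12.2 ± 1.0, 15.6 ± 4.1 and 39.3 ± 4.3 in the same order.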

How the data were processed

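Poly(A) RNA of 15 Caco-2 libraries was measured. The deposited values are raw counts per gene, 1 file per library; per the submitters' processing notes, the tools were featureCounts, DESeq2 1.32.0, cutadapt and STAR 2.7.9a and the build GRCh38, with no role or order given. Per the file headers, the authors' control counts came from RNA STAR and the rinse aid counts from HISAT2. The annotation release and strand setting are not given in the sources used here.

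Genes were joined by Ensembl identifier, and the 60557 shared genes held no less than 99.977% of the counts of any library. All 37 member identifiers had the same version in every file. Coordinates and sequences came from GENCODE 29 on GRCh38. In R 4.3.3, edgeR 4.0.16 was fitted to all 15 libraries with 3 group means (TMM, filterByExpr by group, robust quasi-likelihood test), with Benjamini-Hochberg adjustment over the 13158 genes tested and calls at an adjusted p under 0.05. DESeq2 1.42.0 was an alternative. Standard errors were derived from the F statistic. Shares and proportions were compared by exact two-sided permutation over the 252 arrangements of 5 against 5 libraries. Scripts were tested on simulated data. No 2 libraries of a group agreed within sampling noise (lowest chi-square per degree of freedom 1.73). In the controls this value was 1.73 to 2.16 among replicates 3 to 5 and 4.30 to 8.61 in pairs with replicate 1 or 2. At 1:10000 it was 1.90 to 2.51 and 4.57 to 8.53, and at 1:40000 2.63 to 5.11 and 4.15 to 64.9.

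Members and gene lists were chosen with earlier results of these data known. The text names all 37 members and, of each nuclear list, up to 2 called genes with the largest and 2 with the smallest difference between dilutions, at a mean of at least 5 CPM, plus the 5 genes most like the summed messenger level. Alternatives covered scaling, filter, tool, groups fitted, denominators, replicate block and leaving out libraries.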

Additional observations from a re-analysis of the deposited data

Results flagged for a closer look

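A library far from the other 4 of its group was looked for in 114 groups of values, and 5 were found; chance gives about 1 in 20 groups. In the controls, replicate 3 had the lowest MT-CO3 level, 1836 normalised CPM, with the next at 2183. Replicate 1 of the controls had the highest MT-ND5 proportion, 7.80% of messenger counts, with the next at 6.93%. At 1:10000, replicate 1 had the lowest MT-ND5 level, 879 normalised CPM against 1125 for the next, and replicate 2 the highest ribosomal share, 3.83% of counts against 3.29%. At 1:40000, replicate 1, the deepest library, had the lowest MT-ATP8 proportion, 0.320% of messenger counts against 0.821% for the next.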

How the results depend on the processing

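Counts of mitochondrial genes called higher were 12 to 14, 4 to 5 and 15 to 15 on leaving out each library in turn, for 1:10000 against control, 1:40000 against control and 1:10000 against 1:40000 (12, 4 and 15 with all). The 12 and the 15 include MT-TI, which passed the filter on low counts through the 1:10000 libraries alone. The counts called lower (2, 1 and 0) ran from 1 to 2, 1 to 2 and 0 to 1. With no filter on low counts 1 gene was lower at 1:10000 than control, and without the deepest and shallowest library at 1:40000 the other two were 3 and 1; fewer libraries entered that fit. A fit with the replicate number as a block changed no count by over 1.5 times, and the labels give no shared source for a number. Same-numbered libraries deviated together weakly between dilutions (correlations 0.281, 0.106, 0.231, 0.0464 and 0.105 for replicates 1 to 5, of which replicates 1, 2 and 3 correlated best with their own number), from 0.0596 to 0.135 for 1:40000 against control and from -0.0503 to 0.0579 for 1:10000 against control. For 1:40000 against control, replicates 2, 4 and 5 correlated best with their own number, and for 1:10000 against control replicate 5. Not every pair passed 0.1 in any comparison, so the numbers were not taken to pair the samples. That threshold was a choice, and the unpaired tests treat all libraries as independent. Permuted within a replicate block, 0, 0 and 0 of 5 class shares (4, 3 and 5 without it) and 0, 0 and 0 of 17 composition measures (12, 8 and 9) passed, since 5 pairs cannot give a p below 0.0625. On leaving out each library, class shares gave 3 to 4, 3 to 3 and 4 to 5, and composition 10 to 12, 7 to 8 and 8 to 12.

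Some small differences changed sign, and the cause was not tested. For 1:40000 against control without the deepest and shallowest library, the log2 values were -0.0479 for MT-ND1, -0.24 for MT-ATP6, 0.0181 for MT-ND3, -0.12 for MT-ND4L, -0.40 for MT-ND4 and -0.17 for MT-CYB, and the MT-ND2 proportion was 0.0175 percentage points. Between dilutions, under that setting, the proportions of MT-ATP8, MT-ND6 and all transfer RNA genes were -0.0320, -0.00367 and -6.76e-04. MT-TI at 1:40000 against control was -0.0105 with total counts only and -0.0967 with the replicate block. On leaving out each library, 1:40000 against control ran from -0.18 to 0.33 in MT-TI, -0.0566 to 0.107 in MT-CYB, -0.0244 to 0.259 in MT-ATP6 and -0.11 to 0.26 in MT-ND4. Proportions ran from -0.174 to 0.0406 in MT-ATP6 (1:10000 against control), and between dilutions from -0.00366 to 0.0110 in MT-ND6 and -0.0119 to 0.195 in MT-ATP8. The floor of 3 counts limits what can be said of 9 transfer RNA genes.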
